A study of Danio rerio with 11 samples.

Results

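The genes hsd3b7, slc27a2a and ch25hl1.1 belong to families with enzymes that act on bile acid precursors or on the side chain of sterols. They were found by gene symbol in the platform annotation, and each had 1 probe set, so 3 of 12784 probe sets tested and 3 of 7792 named genes are described. The genes were picked with earlier results on these arrays known, in which ahcy mutants differed from controls. Their differences between mutants and the other groups are therefore given as descriptions, without a test.

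Expression was measured in livers taken from zebrafish larvae at 4 days after fertilisation (dpf), with 1 Affymetrix array per sample. Controls (4 arrays) were ahcy +/+ and received vehicle by yolk injection at 2 dpf. The azacytidine group (4 arrays) was also ahcy +/+ and received 1 mM azacytidine by the same route. Azacytidine is a cytidine analogue that traps DNA methyltransferases once it is built into DNA. The mutants (3 arrays) were ahcy -/- and received vehicle. The product of ahcy, S-adenosylhomocysteine hydrolase, clears the by-product of methylation reactions. How much of its activity the mutants keep was not measured. The design sets a drug against a mutation, both with targets tied to methylation, which was not measured here. Neither was restricted to the liver. Nothing in the labels ties samples to clutches or gives the number of larvae in each, so the p-values reflect sample-to-sample spread that may be technical.

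Bile acids and bile alcohols are made from cholesterol in hepatocytes, by changes to the sterol ring and oxidation of the side chain. They carry lipids into bile and the gut, and they are ligands of nuclear receptors. Zebrafish secrete mainly bile alcohols, which keep the full side chain of cholesterol. In mammals HSD3B7 oxidises the ring of hydroxylated sterol precursors, an early step shared by the main routes. SLC27A2 joins very long-chain fatty acids and bile acid precursors to coenzyme A. Cholesterol 25-hydroxylase, to whose family ch25hl1.1 belongs, adds a hydroxyl group to the side chain and so forms an oxysterol, a signal that lowers sterol synthesis.

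Levels are the deposited log2 values, on which a step of 1 is a doubling, and differences are limma estimates ± standard error over all 11 arrays. The lowest and highest array medians were 5.97 and 6.14 in controls, 5.89 and 5.97 with azacytidine, and 6.13 and 6.17 in mutants. Several marker lists set arrays apart before any comparison. The mean of 18 neural markers was 9.27 on control 4 and 8.19 on control 8, against 6.52 and 5.96 on controls 1 and 2, 5.41 to 5.95 with azacytidine and 7.39 to 8.41 in mutants. Exocrine pancreas markers (12 genes) averaged 9.96 on control 2 and 5.42 to 7.44 on the other controls. Muscle actin has array control probe sets at both ends, and its 3' level exceeded its 5' level by 5.59 to 6.21 on mutant arrays, by 3.16 to 4.92 on controls and by 1.88 to 4.02 with azacytidine. The mutants had ahcy transcript levels of 12.11, 11.47 and 11.50, with a control mean of 12.40 ± 0.08 (SD, n = 4). The labels do not place the mutation, so this level does not check the genotype.

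The ring enzyme gene hsd3b7 was at 9.71, 9.27, 8.40 and 8.61 on controls 1, 2, 4 and 8. It was at 9.05, 9.09, 8.59 and 8.98 on azacytidine arrays 1, 2, 5 and 6. On mutant arrays 3, 4 and 6 it was at 6.17, 6.15 and 5.96. All mutant arrays thus lay below all others, and the control and azacytidine ranges overlapped. The gap between the lowest control and the highest mutant was 2.23, and the mutants differed from one another by far less (SD 0.12, n = 3) than the controls did (SD 0.60, n = 4). Within each array, hsd3b7 stood between the 81.4th and 91.8th percentile of probe sets in controls and between the 45.7th and 50.4th in mutants. The difference of mutants from controls was -2.90 ± 0.32, a 7.49-fold lower level. In that direction 85 of the 12784 probe sets had a larger difference. Over all probe sets, 10.6% had mutant arrays entirely below control arrays, and 5.87% were called lower in limma at an adjusted p under 0.05 (12.1% in either direction).

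The acyl-CoA synthetase gene slc27a2a was at 9.62, 9.71, 8.66 and 8.93 on controls 1, 2, 4 and 8. It was at 9.17, 8.80, 7.91 and 10.11 on azacytidine arrays 1, 2, 5 and 6, the widest spread of any group for this gene (SD 0.91, n = 4). On mutants 3, 4 and 6 it was at 6.38, 5.15 and 5.10. The mutant arrays again lay below every other array, with mutant 3 the highest of them. Its percentile within the array was between 83.4 and 91.4 in controls. In mutants it was 54.9 on array 3, 26.2 on array 4 and 23.5 on array 6, all above the 10th percentile. The difference of mutants from controls was -3.69 ± 0.50, or 12.9-fold lower, and 34 probe sets had a larger one in that direction. Without mutant 3 it was -4.10, the largest value among fits that left out 1 array.

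The oxysterol-forming gene ch25hl1.1 ran the other way. It was at 6.84, 5.34, 5.79 and 6.35 on controls 1, 2, 4 and 8. It was at 4.42, 5.45, 6.27 and 5.44 on azacytidine arrays 1, 2, 5 and 6, and at 8.81, 9.24 and 9.45 on mutants 3, 4 and 6. All mutant arrays lay above all others. The control and azacytidine levels lay near the middle of their arrays or below it, from azacytidine array 1 up to the 67.7th percentile on control 1, while mutants stood between the 86.6th and 89.6th. The difference of mutants from controls was 3.09 ± 0.43, or 8.50-fold higher. A larger positive difference was found for 16 probe sets, against 12.0% with mutant arrays entirely above control arrays and 6.23% called higher.

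**Figure D1:**
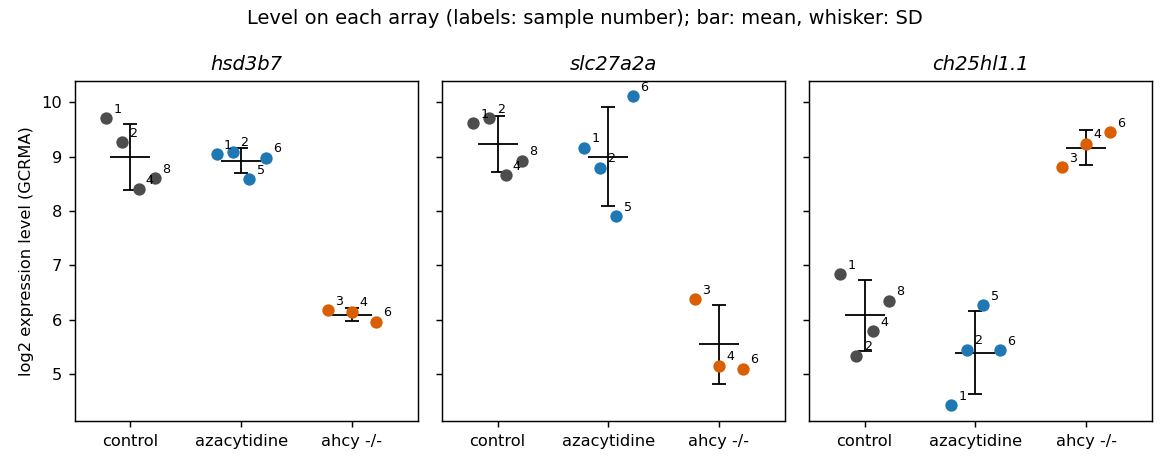
Log2 expression level (vertical axis) of hsd3b7, slc27a2a and ch25hl1.1 on each array, by group, with points numbered by sample, and the group mean (bar) and SD (whisker). The 3 mutant arrays sit apart from the 8 others in every panel, at 5.96 to 6.17 for hsd3b7, 5.10 to 6.38 for slc27a2a and 8.81 to 9.45 for ch25hl1.1.

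The mutants differed from azacytidine arrays by -2.83 ± 0.32 for hsd3b7, -3.45 ± 0.50 for slc27a2a and 3.77 ± 0.43 for ch25hl1.1. This comparison uses the same mutant arrays as the one with controls. Its background was large, since 29.4% of probe sets were called, 11.1% lower and 18.2% higher. Mutant arrays lay entirely below azacytidine arrays for 13.8% of probe sets and entirely above them for 23.5%.

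Azacytidine against control was tested for the 3 genes, on the reading that its values did not choose them, and none passed. Whether earlier azacytidine results also guided the choice is not known here. If they did, this outcome was in part fixed in advance. The 4 control arrays also serve in the mutant comparison that chose the genes, so the azacytidine differences are not independent of that choice. In limma 0 of the 3 were called, where 0.579% of all probe sets were (0.180% lower and 0.399% higher). At an unadjusted p under 0.05 there were also 0 of the 3, where 669 of the 12784 probe sets were higher and 1270 lower. A count of 0 among 3 genes is thus close to that background. The groups overlapped for each of the 3, while 5.26% of probe sets had azacytidine arrays entirely below controls and 3.71% entirely above. The difference of hsd3b7 was -0.07 ± 0.29 (adjusted p = 0.95, 95% interval -0.71 to 0.57). That estimate was positive when arrays were centred on their medians or scaled by cyclic loess, and without control 1, control 2 or azacytidine array 5 in turn, at most 0.17. For slc27a2a it was -0.23 ± 0.46 (adjusted p = 0.88, interval -1.24 to 0.77), and 0.13 without azacytidine array 5. For ch25hl1.1 it was -0.69 ± 0.40 (adjusted p = 0.46, interval -1.56 to 0.19), with -0.98 without azacytidine array 5, -0.36 without azacytidine array 1 and -1.20 without controls 2 and 4 together. These intervals, which are not adjusted for the number of genes, reach no further than 1.56 in size. The differences of mutants from controls were not compared with them, since those values chose the genes. For hsd3b7 and slc27a2a the order of levels was control, azacytidine, mutant, with the first pair not separated. For ch25hl1.1 it was mutant, control, azacytidine, again with the last pair not separated.

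**Figure D2:**
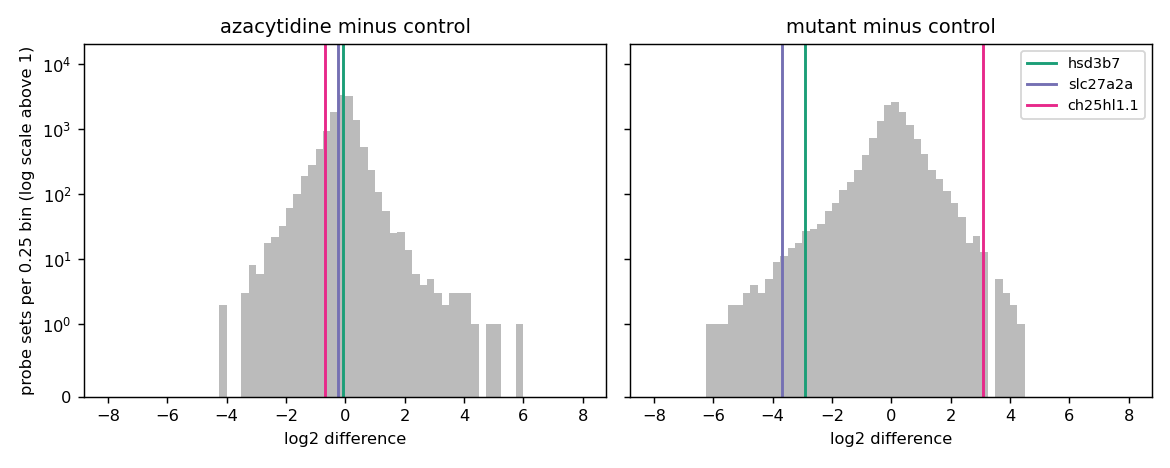
Number of probe sets (vertical axis, log scale above 1) by log2 difference from controls in bins of 0.25, for azacytidine (left) and mutants (right), with lines at hsd3b7, slc27a2a and ch25hl1.1. The lines stand near the centre on the left, between -0.69 and -0.07, and in the tails on the right, at -3.69, -2.90 and 3.09. The genes were picked with the mutant results known, so their place on the right was fixed in advance. The 2 panels are therefore not a comparison of drug and mutation.

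Among themselves, hsd3b7 and slc27a2a followed each other across arrays (Pearson's r = 0.95 over 11 arrays), a value that the gap between mutants and the rest largely sets. After each group's mean was subtracted r was 0.59. In controls both were highest on arrays 1 and 2 and lowest on array 4. Those are the control arrays with low and high neural marker levels, respectively, and the part of such tissue in the spread was not tested. Without controls 2 and 4 together, the differences of mutants from controls were -3.07, -3.73 and 2.57 for hsd3b7, slc27a2a and ch25hl1.1. For ch25hl1.1, r with hsd3b7 was -0.89 over all arrays and -0.03 after group means were subtracted, and with slc27a2a -0.90 and -0.40.

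The genes whose levels over the 11 arrays were most like those of each enzyme gene were chosen by Pearson's r. For hsd3b7 these were chka, a choline kinase gene (r = 0.99), map7d1b (0.98), the cytochrome P450 gene cyp4v2a (0.98), rida (0.97) and agmo, which encodes an ether lipid-cleaving oxygenase (0.97). With group means subtracted, r was 0.93 for chka and 0.51 to 0.79 for the other 4. For slc27a2a they were the apolipoprotein B gene apoba (0.98), ugdh, enpp1, qsox1 and asmtl (0.96 to 0.97), with 0.73 to 0.91 after subtraction. For ch25hl1.1 they were svopl, the Wnt receptor gene fzd10, the adhesion gene nectin3b, chmp1b and the claudin gene cldne (0.95 to 0.97), with 0.62 to 0.75 after subtraction. These points share arrays and group differences, so r describes them only. The genes were picked by r over arrays that include the mutants. The direction of their differences of mutants from controls was thus largely fixed in advance, and these are given without a test. For genes picked with hsd3b7 or slc27a2a they ran from -5.46 (cyp4v2a) to -0.87 (enpp1). Within that range were chka (-2.63 ± 0.37) and ugdh (-2.03 ± 0.30), which encodes an enzyme that supplies glucuronic acid. The mutant mean of cyp4v2a was 1.56, below the 10th percentiles of those arrays (4.37 to 4.51), so the size of its difference is uncertain. For genes picked with ch25hl1.1 the differences ran from 0.68 (fzd10) to 2.85 ± 0.45 (cldne). The gene cldne is also 1 of the epidermis markers.

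Around these genes, 23 of the 82 further genes on 5 bile acid lists (ring, side chain, oxysterols, transport and regulators) were measured. Most of the listed genes were thus not seen, and the counts describe only these 23. In mutants against controls 10 of them fell and 2 rose in limma, with a median difference of -0.81. Over all 7792 named genes 13.7% were called, 7.17% lower and 6.48% higher, with a median of 0.04. The count of 12 was 6 without mutant 4 and 7 without mutant 6. With azacytidine 0 of the 23 were called, where 0.603% of named genes were (0.167% lower and 0.436% higher). At an unadjusted p under 0.05 there were 2 (cyp27a1.1 and nr5a2), where 669 of the 12784 probe sets were higher and 1270 lower. The median difference of the 23 was 0.01. In mutants against azacytidine 9 were lower and 2 higher, against 13.1% and 17.4% of named genes (30.5% in either direction).

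Of the other ring enzymes, both measured genes belong to the sterol 12-alpha-hydroxylase family, whose products set the mix of bile acids. Neither passed the test. On mutants 3, 4 and 6 cyp8b1.1 was at 10.14, 9.83 and 7.43, and on controls it was between 9.25 and 10.03, so only mutant 6 lay below the controls. For cyp8b1.3 the mutant levels were 7.78, 8.60 and 5.11, against 6.73 to 7.38 in controls. The differences of -0.52 ± 0.52 (limma adjusted p = 0.58) and 0.08 ± 0.63 (adjusted p = 0.96) both moved with mutant 6. Without it they were 0.33, which reversed the sign for cyp8b1.1, and 1.1. The mutant levels of hsd3b7 had no such split between arrays. The rate-limiting enzyme gene cyp7a1 was not analysed here.

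Of the side chain genes other than slc27a2a, 3 of 6 fell in mutants and none rose, against 7.17% and 6.48% of named genes. The peroxisomal enzyme gene hsd17b4, whose product acts in side chain and very long-chain fatty acid oxidation, fell by 2.26 ± 0.25 (limma adjusted p = 0.00025). It was at 9.16 to 9.53 in controls and at 7.14, 7.41 and 6.67 in mutants. The thiolase and sterol carrier gene scp2a fell by 1.47 ± 0.27 (adjusted p = 0.0048), from 12.50 to 12.66 in controls to 11.79, 11.30 and 10.21 in mutants. For the sterol 27-hydroxylase family, cyp27a1.1 fell by 1.28 ± 0.32 (adjusted p = 0.024), a call lost without control 1, control 2, mutant 3 or mutant 4, where the estimates stayed between -1.27 and -1.04. The differences of cyp27a1.4, scp2b and the peroxisomal transporter gene abcd3a were -0.91 ± 0.29, -0.70 ± 0.28 and -0.81 ± 0.31 (adjusted p = 0.059, 0.14 and 0.11). The first of these was called without control 4, azacytidine array 6 or mutant 3 (-1.12 to -0.91). The last, abcd3a, was called without mutant 3 (-1.21) and ran from there to -0.42 over fits without 1 array. Mutants against azacytidine had cyp27a1.1 lower by -2.03 ± 0.32 (adjusted p = 0.0011).

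The other 2 measured genes of the oxysterol list moved opposite to ch25hl1.1. The cholesterol 24-hydroxylase family gene cyp46a1.4 fell by 2.62 ± 0.39 (limma adjusted p = 0.0015), with 7.49 to 9.03 in controls and 6.09, 5.86 and 4.98 in mutants. The steroid-oxidising P450 gene cyp3a65 fell by 2.14 ± 0.61 (adjusted p = 0.041), a call lost in 6 of the 11 fits without 1 array, those without controls 2, 4 or 8, azacytidine array 2 or mutants 4 or 6 (-2.60 to -1.88 over all such fits). Other genes of the cholesterol 25-hydroxylase family were not analysed here. In the reference annotation ch25hl1.2 lies close to ch25hl1.1, and whether the probe set also reads it was not tested.

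Of the few measured relatives of hsd3b7 (2 genes) and slc27a2a (6 genes), none was called in mutants against controls. Since 13.7% of named genes were called, so few genes cannot set the relatives apart from that share. In the 3-beta-hydroxysteroid dehydrogenase family, hsd3b2 differed by -0.15 ± 0.20 and nsdhl, a cholesterol synthesis enzyme gene, by -1.14 ± 0.37 (limma adjusted p = 0.69 and 0.068). Without control 8 nsdhl was called, at -1.41. Of 6 measured slc27 and long-chain acyl-CoA synthetase genes besides slc27a2a, 0 were called, where 13.7% of named genes were. None of the 6 had an unadjusted p under 0.05, where 1947 of the 12784 probe sets were higher and 1446 lower. Their differences ran from -0.16 for slc27a6 to 0.53 for slc27a1a, with a median of 0.32. Against azacytidine 3 of the 6 were higher in mutants, where 17.4% of named genes were. Of the 3, slc27a1a, a fatty acid transporter of muscle and fat in mammals, was higher by 1.23 ± 0.31 (adjusted p = 0.013). The calls of acsl1a and acsl6 were each lost in at least 8 of the 11 fits without 1 array (0.45 to 1.00 and 0.98 to 1.35 over all such fits). None of these differences was tested against that of slc27a2a.

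Among bile carriers, the bile acid-binding protein gene fabp10a, one of the most abundant liver transcripts of zebrafish, fell by 3.23 ± 0.49 (limma adjusted p = 0.0016). It was at 13.31 to 13.53 in controls and at 11.66, 10.25 and 8.60 in mutants. The organic anion uptake gene slco1d1 fell by 2.19 ± 0.41 (adjusted p = 0.0054), with mutant 6 again lowest at 8.01 against 10.05 and 10.09. The basolateral exporter gene abcc3 rose by 0.99 ± 0.23 (adjusted p = 0.016), a call lost without mutant 4 or mutant 6 (0.84 to 1.22 over fits without 1 array). It was dim in controls, at 3.90 to 4.39. The remaining 3 measured carriers were not called. Against azacytidine the same 3 carriers were called, with differences of -3.27 ± 0.49 for fabp10a, -1.93 ± 0.41 for slco1d1 and 0.89 ± 0.23 for abcc3 (adjusted p = 0.00071, 0.005 and 0.013), the last lost without mutant 6 (0.74). With azacytidine the largest carrier differences from controls were 0.28 ± 0.55 for fabp6, an ileal bile acid-binding protein gene, and -0.26 ± 0.38 for slco1d1 (adjusted p = 0.88 and 0.82).

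Among regulators, nr1h3, which encodes the oxysterol receptor LXR alpha, fell by 1.70 ± 0.26 (limma adjusted p = 0.002). It was at 7.54 to 8.13 in controls and at 6.17, 6.46 and 5.90 in mutants. The genes nr5a2 and hnf4a, whose products are receptors that drive bile acid genes in mammalian liver, fell by 1.66 ± 0.40 and 0.93 ± 0.27 (adjusted p = 0.019 and 0.046). The first call was lost without control 1, mutant 4 or mutant 6 (-2.01 to -1.38 over all fits without 1 array). The second was lost in 9 of 11 such fits, all but those without control 4 or mutant 3 (-1.09 to -0.72 over all 11). The retinoid receptor gene rxrba rose by 0.97 ± 0.28 (adjusted p = 0.042), also lost in 9 of 11 fits, all but those without azacytidine array 2 or 6 (0.64 to 1.16). The other 3 measured regulators were not called. Against azacytidine nr1h3 differed by -1.64 ± 0.26 and rxrba by 1.07 ± 0.28 (adjusted p = 0.0011 and 0.014). With azacytidine the largest differences from controls were -0.96 ± 0.37 for nr5a2 and -0.52 ± 0.38 for the growth factor receptor gene fgfr4 (adjusted p = 0.24 and 0.58).

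**Figure D3:**
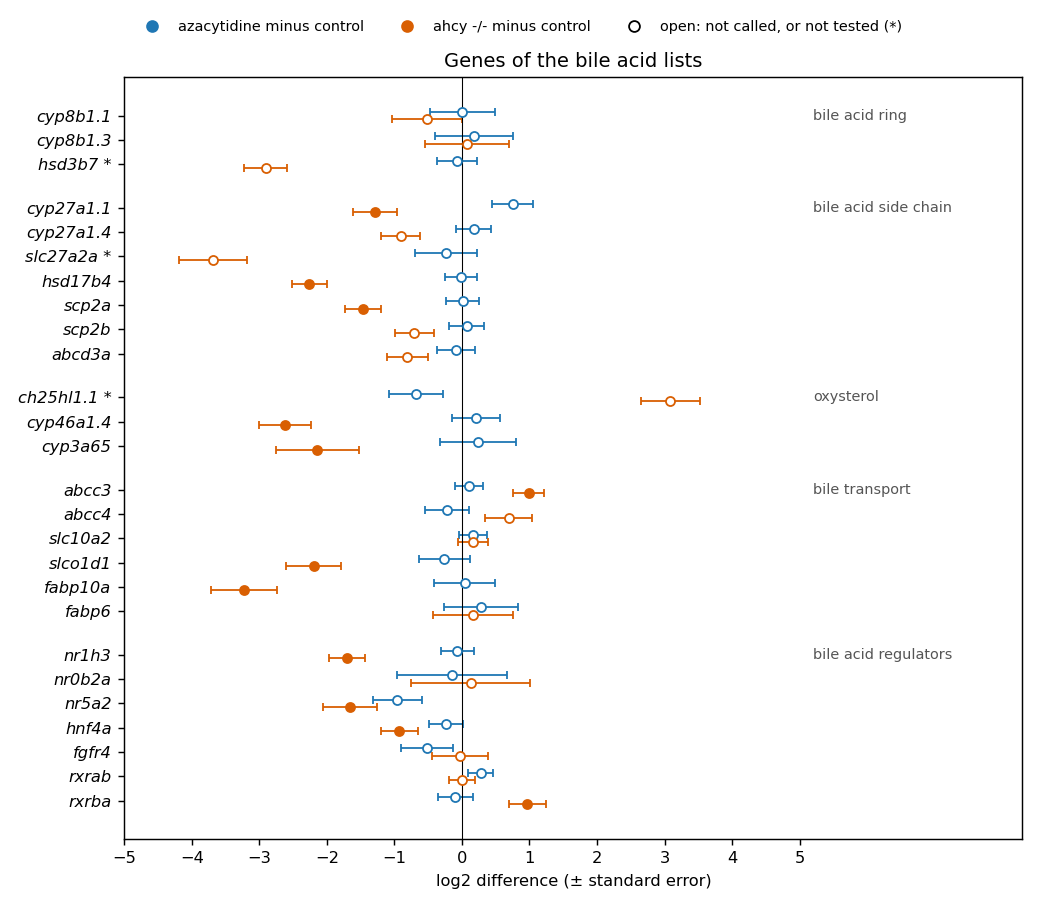
Log2 difference from controls (horizontal axis, with standard error) for each measured gene of the 5 bile acid lists, with azacytidine in blue and mutants in orange. Filled points passed the limma test, and the genes marked with an asterisk have no test in mutants. No azacytidine point is filled, and 10 orange points are filled on the lower side and 2 on the higher.

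Oxysterols restrain sterol synthesis in mammalian cells. Of 9 measured cholesterol synthesis genes, 1 fell and none rose in mutants against controls, where 7.17% of named genes were lower and 6.48% higher. The 9 include cyp51, which was below the 10th percentile of probe sets on every array, at 1.14 to 3.29, where levels are uncertain. The gene that fell was the synthase gene hmgcs1 (-1.65 ± 0.39, limma adjusted p = 0.019). Its call was lost without control 2 or mutant 6 (-1.82 to -1.30 over all fits without 1 array). With azacytidine 0 were called. At an unadjusted p under 0.05 there were 5, all 5 higher, where 669 of the 12784 probe sets were higher and 1270 lower. The median azacytidine difference over the 9 was 0.76. The largest differences there were 2.00 ± 0.50 for msmo1, a sterol demethylation enzyme gene, and 1.41 ± 0.51 for the farnesyl diphosphate synthase gene fdps (adjusted p = 0.095 and 0.21). Without azacytidine array 1, msmo1 was called. Against azacytidine, where 13.1% of named genes were lower and 17.4% higher, 5 of 9 were lower in mutants and 1 higher. They included hmgcs1 at -2.85 ± 0.39 and msmo1 at -2.48 ± 0.54 (adjusted p = 0.00046 and 0.0057). Among 7 sterol homeostasis genes, mylipa rose by 1.48 ± 0.34 in mutants (limma adjusted p = 0.016). In mammals it is an LXR target, and its product marks the LDL receptor for breakdown. Its call was lost without mutant 4 or mutant 6 (1.27 to 1.81 over all fits without 1 array). With azacytidine the only call among the 7 was the sterol transfer protein gene stard3, which rose by 1.05 ± 0.17 (adjusted p = 0.019). That call was lost without control 4 or azacytidine arrays 2 or 6 (0.95 to 1.13 over all such fits).

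Part of side chain oxidation takes place in peroxisomes. In mutants 6 of 11 measured peroxisomal genes fell while none rose (hsd17b4 is also a side chain gene), against 7.17% and 6.48% of named genes. All 11 estimates were negative, with a median of -0.86. The phytanoyl-CoA hydroxylase gene phyh fell by 2.98 ± 0.23 (limma adjusted p = 2.5e-05), and the beta-oxidation gene ehhadh by 2.23 ± 0.31 (adjusted p = 0.0011). The biogenesis genes pex3, pex13 and pex19 fell by 2.09 ± 0.24, 1.23 ± 0.25 and 0.86 ± 0.24 (adjusted p = 0.00032, 0.0083 and 0.035), of which pex13 and pex19 fall outside the naming rule and were added with their values known. The call of pex19 was lost in 6 of 11 fits without 1 array (-1.01 to -0.74 over all 11). Those were the fits without controls 1, 2 or 4, azacytidine array 2 or mutants 3 or 6. With azacytidine 0 of 11 were called and 0 had an unadjusted p under 0.05, where 669 of the 12784 probe sets were higher and 1270 lower.

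Other liver and non-liver transcripts moved with these genes in mutants. In dissected tissue, fewer cells of a type and less RNA per cell cannot be told apart. Of 18 hepatocyte markers 12 fell and none rose against controls, with a median of -0.88, where 7.17% of named genes were lower and 6.48% higher. The markers fabp10a and hnf4a stand in both that list and the bile acid lists. The mean level of the 18 was 9.20 to 9.97 in mutants, lowest on mutant 6, against 11.04 to 11.46 in controls and 11.56 to 11.83 with azacytidine. No hepatocyte marker was below the 10th percentile on all arrays of any group. Relative to that mean, hsd3b7 was at -3.82 to -3.24 in mutants, -2.85 to -1.40 in controls and -3.05 to -2.51 with azacytidine. For slc27a2a the ranges were -4.82 to -3.52 in mutants and -2.53 to -1.33 in controls, and azacytidine array 5, at -3.73, lay within the mutant range. The hepatocyte mean itself moved with azacytidine, where 15 of the 18 estimates were positive. One marker was called there, ahsg1 (1.87 ± 0.31, limma adjusted p = 0.019), where 0.603% of named genes were. In mutants the marker differences from controls ran from -5.12 (tdo2a) to 0.73 (hpxa), so subtracting their mean does not remove hepatocyte content. The relative levels are descriptions of values that chose the genes, and the part of hepatocyte content in the differences was not tested.

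Among the lists of other cell types, markers of epidermis, muscle and leukocytes included genes that rose on the mutant arrays, where ch25hl1.1 was high. Over all named genes 6.48% were called higher in mutants against controls and 7.17% lower. Of 18 epidermis markers 13 rose and none fell in mutants, with list means of 9.15 to 10.01 against 7.71 to 8.19 in controls and 6.60 to 7.66 with azacytidine. Of 21 muscle markers 12 rose and none fell, with means of 10.16 to 10.83 against 8.46 to 9.44 and 7.79 to 8.50. Of 15 leukocyte markers 4 rose and 1 fell, the neutrophil gene mpx, with means of 6.52 to 7.40 against 5.93 to 6.60 and 6.69 to 7.15. Both ch25hl1.1 and the epidermis mean were highest on the mutant arrays, in the same order, and lowest on azacytidine array 1. Among controls both were lowest on control 2. Other arrays did not match. Azacytidine array 5 had the highest ch25hl1.1 of its group (6.27), but an epidermis mean (7.285) below those of azacytidine arrays 2 and 6 (7.66 and 7.58). Control 1 had the highest ch25hl1.1 of the controls (6.84), but an epidermis mean (7.92) below that of control 4 (8.06) and of control 8. The part of such tissue in the level of ch25hl1.1 was not tested. Of the other lists, 0 of 18 neural, 0 of 8 biliary and 0 of 11 intestine markers were called in mutants against controls (limma), and 1 of 12 exocrine pancreas markers fell. At an unadjusted p under 0.05 there were 0 neural, 3 biliary and 2 intestine markers, where 1947 of the 12784 probe sets were higher and 1446 lower. In each of these lists at most 1 marker was below the 10th percentile on all arrays of a group. The mammalian gene is induced by interferon in macrophages, and of 8 measured interferon response genes 3 rose with azacytidine (isg15, irf1b and gbp1, by 5.92, 4.22 and 2.85) and gbp1 alone in mutants against controls (3.84 ± 0.61, limma adjusted p = 0.0022). With azacytidine 0.436% of named genes were called higher. The azacytidine call of irf1b was lost in 6 of 11 fits without 1 array, those without controls 1, 4 or 8 or azacytidine arrays 2, 5 or 6 (3.78 to 4.42 in those 6). That of gbp1 was lost in 8, those without controls 4 or 8, any azacytidine array, or mutants 4 or 6 (2.30 to 3.01 in those 8).

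**Figure D4:**
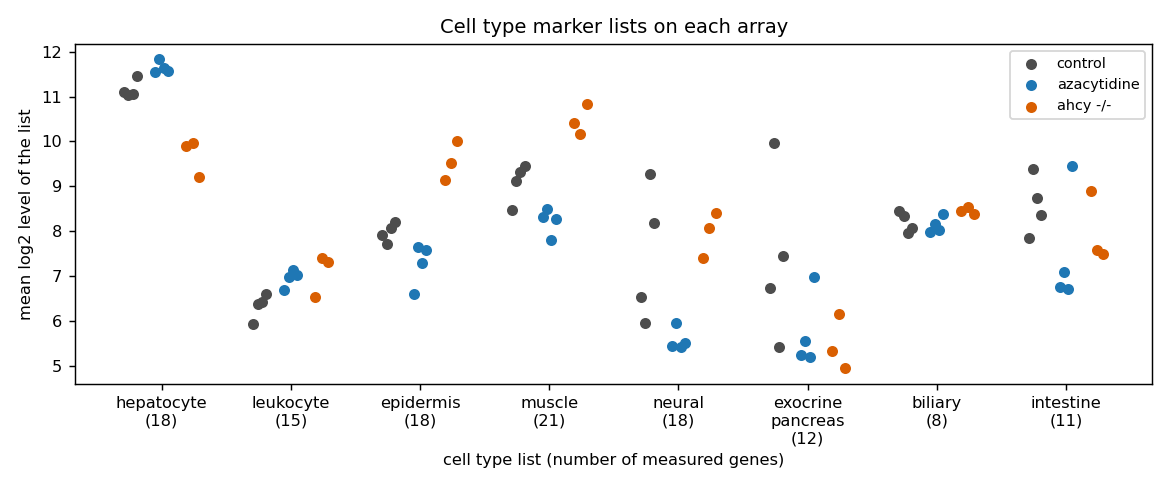
Mean log2 level of each cell type list (vertical axis) on each array, with controls in grey, azacytidine in blue and mutants in orange; the number of measured genes is in parentheses. Mutant arrays were lowest for hepatocyte markers, at 9.20 to 9.97, and highest for epidermis and muscle markers.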

How the data were processed

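Livers of 11 larval samples were profiled on 1-colour Affymetrix arrays. The values deposited by the authors are on a log2 scale. The submitters' processing notes name GCRMA and Partek (versions and filters are not given in the sources used here). GCRMA subtracts a sequence-dependent background, so low levels are uncertain. Levels near the top of the scale may be compressed. The labels describe 2 rounds of RNA amplification. Of 12830 probe sets, 46 array controls were left out. The platform annotation gave 1 symbol to 8994 of the rest, several to 110 and none to 3680; a gene ID gave a current symbol for 8926, 1 of which differed. The probe set with the highest mean stood for a gene. Columns of other samples numbered 0.

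Differences came from limma 3.58.1 (R 4.3.3) with 3 group means (8 residual degrees of freedom, variance prior with a mean trend, 2-sided, Benjamini-Hochberg over 12784 probe sets, threshold 0.05). The procedure was tested on simulated data with independent normal noise, for mutants against controls. It recovered 24.5% of changes of 1 log2 unit, 78.5% of changes of 2 and 96.1% of changes of 3. In the simulation 200 of 12784 probe sets were changed, a smaller share than the 12.1% called in the data. The rates depend on that share, so they need not hold for the data. The genes and the 19 gene lists were chosen with earlier results of these data known. Named genes were the 3 enzyme genes, the measured members of the ring, side chain, oxysterol and family lists, up to 4 called members of each other list per comparison by smallest p (the 2 with the largest differences where none was called), and the 5 genes most correlated with each enzyme gene. Alternatives were other variance priors, filters, scalings, array weights, 2-group fits, blocks, left-out arrays and averaged probe sets. The small number of arrays limits the precision.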

Additional observations from a re-analysis of the deposited data

Results flagged for a closer look

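Of 44 groups of 4 arrays examined for a single array far from the rest, 2 had one. That is close to the rate of about 1 in 20 that chance alone gives. The sterol 27-hydroxylase family gene cyp27a1.4 was at 5.72 on azacytidine array 6, while the other 3 azacytidine arrays lay between 6.41 and 6.53. On the same array the mean level of 11 intestine markers was 9.45, against 6.72 to 7.08 on the other azacytidine arrays. That array also had the highest slc27a2a level of all arrays, 10.11, and without it the azacytidine difference of slc27a2a was -0.60.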

How the results depend on the processing

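The differences of hsd3b7, slc27a2a and ch25hl1.1 between mutants and controls kept their direction in all 23 alternatives, from -3.10 to -2.67, -4.38 to -3.46 and 2.57 to 3.34, with no shift above the within-group spread. Against azacytidine they ran from -3.05 to -2.54, -4.14 to -3.08 and 3.45 to 4.25. With azacytidine none of the 3 was called in any alternative (limma adjusted p between 0.29 and 0.99). The hsd3b7 estimate was 0.059 with cyclic loess and 0.033 with arrays centred, and ran from -0.27 to 0.17 without 1 array. That of slc27a2a then ran from -0.60 to 0.13.

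Counts were less stable. For azacytidine against control the 74 calls were 115 among brighter probe sets, 120 with cyclic loess, 124 with centring, 227 with array weights, 37 without controls 2 and 4, and 32 to 153 without 1 array. For mutants against controls the 1547 were 777 without controls 2 and 4 and 756 to 1688 without 1 array, and the 12 bile acid pathway genes were 6 to 12. For mutants against azacytidine the 3753 were 2372 among brighter probe sets, 2420 of fewer features with probe sets averaged, and 2320 to 3919 without 1 array. The 11 pathway genes were 7 of fewer genes tested among brighter probe sets and 8 to 13 without 1 array. Centring shifted the median difference of mutants by -0.12 against controls and -0.22 against azacytidine. It turned the split of 797 higher and 750 lower into 618 and 890, and that of 2329 and 1424 into 1629 and 2068; cyclic loess gave 1839 and 1854 for the latter. Except where stated, the cause was not tested.

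Deviations of same-numbered arrays correlated at -0.21 to 0.03 in the 4 pairs that shared a sample number. So few pairs cannot settle whether arrays of the same number shared a clutch. With the number as a fixed replicate block, which leaves 2 residual degrees of freedom, calls were 0, 9 and 219 in the 3 comparisons and pathway calls 0, 0 and 1. As a random block it moved no count by over 1.5 times. Of 19 named neighbouring genes called in mutants against controls, 10 kept their call in every fit without 1 array, of which pex13 lost it without controls 2 and 4 together. Dim genes such as abcc3 are limited by background.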
